A study of Mus musculus with 32 samples.

Results

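Insulin and the insulin-like growth factors (IGFs) signal through a small set of genes, and 10 of these were followed in cultured mouse cartilage cells: the ligand genes Igf1 and Igf2, the receptor genes Insr, Igf1r and Igf2r, the receptor substrate genes Irs1 and Irs2, and the binding protein genes Igfbp3, Igfbp4 and Igfbp5. They were chosen by name, by matching mouse symbols to the Ensembl IDs of the deposited tables, and are 10 of the 41388 genes counted. All 10 passed the filter on low counts, which kept 16136 genes.

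RNA had been sequenced from primary chondrocytes, the cells of cartilage, taken from femoral heads at postnatal day 21. The 4 groups were LG/J males, LG/J females, SM/J males and SM/J females, with 8 libraries each and 32 in all. LG/J is an inbred strain known for a large body and for closing ear and cartilage wounds well, and SM/J an inbred strain known for a small body and poor healing. The study asked which pathways mark cartilage that regenerates and cartilage that degenerates. All groups had been grown for 4 days without passage in medium with 10% fetal bovine serum and 1% penicillin and streptomycin, and no group was without serum. Serum itself carries IGFs and insulin, which transcript counts do not measure.

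IGF1 and IGF2 bind the IGF1 receptor, a tyrosine kinase close kin to the insulin receptor, and both receptors pass the signal on through the substrates IRS1 and IRS2 to phosphatidylinositol 3-kinase (PI3K), AKT, mTOR and the MAP kinases. The IGF2 receptor has no kinase and takes IGF2 to the lysosome, and the IGF binding proteins hold IGFs in the matrix or the blood until proteases release them. In cartilage, IGF1 is known to drive matrix synthesis and survival of chondrocytes and growth of the growth plate.

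Total counts per library ran from 15840330 to 25571598. Levels below are CPM, read counts scaled to the same library total, with totals adjusted by TMM (the trimmed mean of log ratios), and differences are log2 fold changes from edgeR ± standard error (SE). Calls rest on an adjusted p under 0.05. Summed levels of 14 chondrocyte markers were 1796 to 53430.0 CPM in LG/J and 11692 to 44756 CPM in SM/J, and all 14 were detected in every group. The LG/J female and the LG/J male library numbered 1 stood apart: they had the lowest chondrocyte sums, 1796 and 2881 CPM, and the highest sums of 10 osteoblast markers, 181152 and 165202 CPM. Values without both are given for the strain difference of each of the 10 genes, for each gene list and for the markers. In 6 libraries (LG/J females 4 and 5, SM/J females 3 and 4, SM/J males 2 and 3) Xist and the Y-linked Ddx3y were both above 5 CPM of the deposited totals. These are called mixed-sex below, and the other libraries held traces of the second RNA under that limit. The 6 closest pairs of libraries within groups (LG/J males 2 and 3 and 4 and 5, LG/J females 4 and 5 and 7 and 8, SM/J males 6 and 7, SM/J females 3 and 4) lay 3.94 to 4.88 times sampling noise apart, against a median of 17.5 over all 112 such pairs. The next pair, SM/J males 7 and 8, lay at 5.91, so the cut at 6 pairs fell at no wide gap. The labels do not say that libraries are separate animals or cultures, so p-values measure no more than the spread among these libraries, and that spread may be technical. In bulk RNA, fewer cells of a type and less RNA per cell cannot be told apart.

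Irs1 and Igf2r were higher in LG/J chondrocytes than in SM/J, Igfbp4 was called higher over all libraries but not without both LG/J libraries numbered 1, and the other 7 genes did not pass the test. Irs1 was 2.45-fold and Igf2r 1.31-fold higher over both sexes. The count of 3 called members in 10 (30%) stands against 29.9% of all genes tested, of which 16.4% were higher and 13.5% lower in LG/J, so the share of called members equalled the background. The median log2 fold change was 0.30 over the 10 genes and 0.02 over all genes tested. Without both LG/J libraries numbered 1, 2 of the 10 were called (20%), Irs1 and Igf2r, against 32.2% of all genes.

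**Figure D1:**
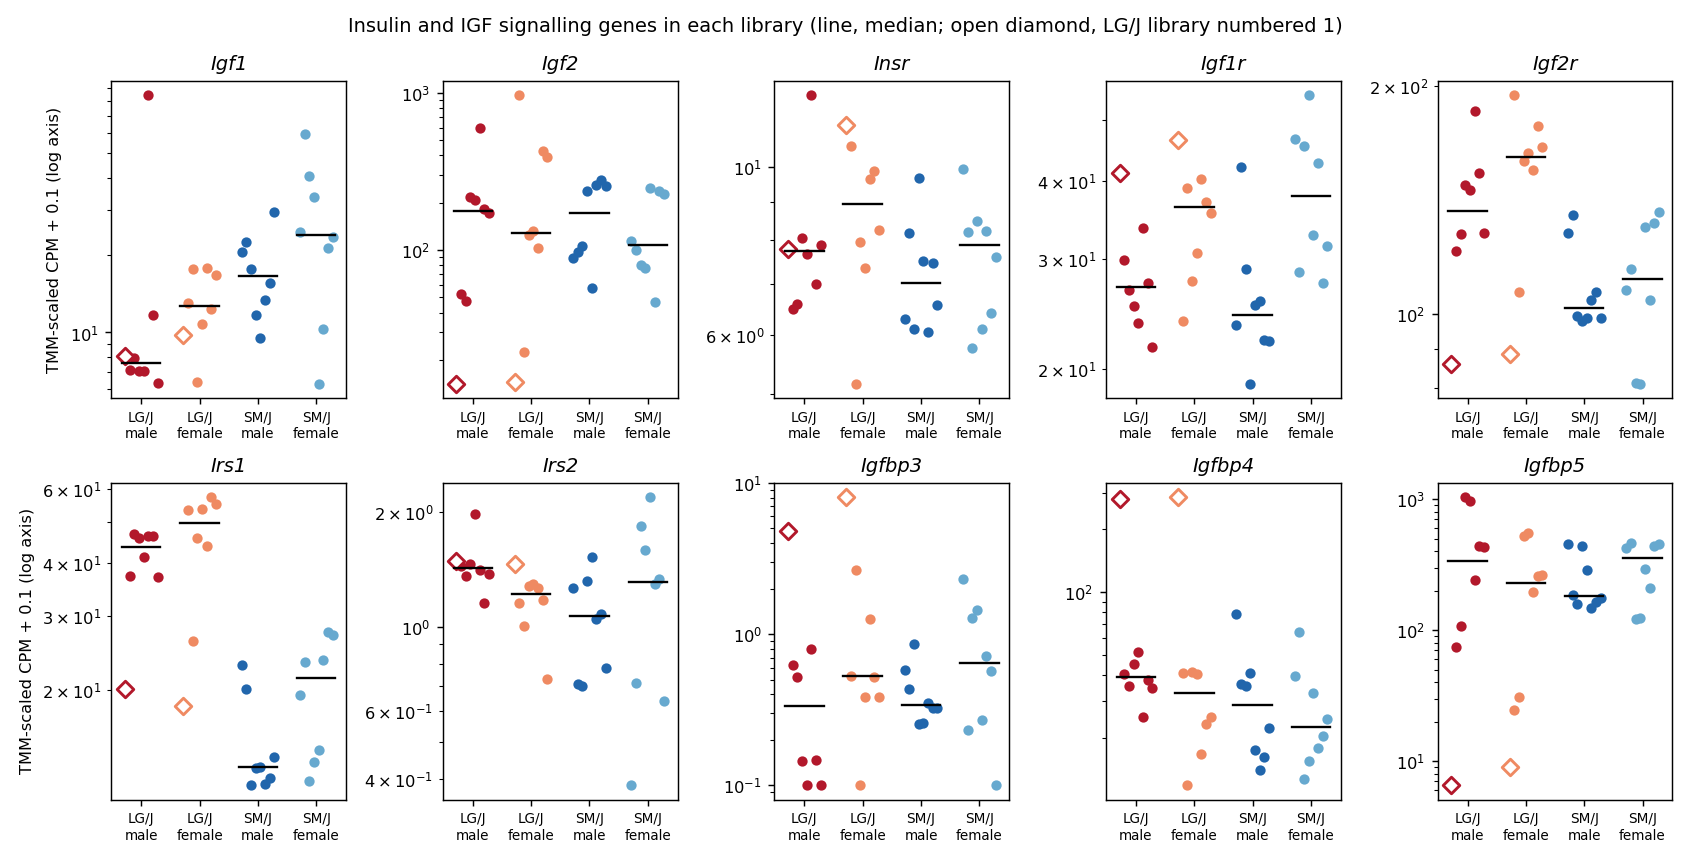
TMM-scaled CPM plus 0.1 on log axes for the 10 genes, 1 point per library, with LG/J males, LG/J females, SM/J males and SM/J females from left to right, a line at each median and open diamonds for the LG/J libraries numbered 1. Irs1 shows the clearest shift between strains, and both diamonds lie at the low end of its LG/J range and far above all other libraries for Igfbp4.

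Per length of transcript, in the deposited RPKM (reads scaled for exon length and library total), the binding protein and ligand genes Igfbp5 and Igf2 stood highest. In LG/J, Igfbp5 was at 55.2 ± 54.3 and Igf2 at 41.7 ± 46.7 RPKM, followed by Igf2r at 15.6 ± 4.30, Igfbp4 at 13.3 ± 15.2, Igf1r at 7.06 ± 1.52 and Irs1 at 4.72 ± 1.52 RPKM (SD, n = 16). The lowest were Igf1 at 1.599 ± 2.13, Insr at 0.865 ± 0.222, Igfbp3 at 0.348 ± 0.567 and Irs2 at 0.301 ± 0.0636 RPKM. In SM/J, Igfbp5 was at 46.8 ± 22.5, Igf2 at 27.5 ± 15.6, Igf2r at 11.6 ± 1.99, Igf1r at 7.18 ± 2.40, Igfbp4 at 6.77 ± 3.91 and Igf1 at 2.25 ± 1.34 RPKM (SD, n = 16). Below these came Irs1 at 1.90 ± 0.633, Insr at 0.755 ± 0.133, Irs2 at 0.263 ± 0.130 and Igfbp3 at 0.172 ± 0.183 RPKM. Neighbours in this order differed by more than the larger of their SDs in LG/J for Igf1r and Irs1 and for Irs1 and Igf1. In SM/J they did so for Igf2 and Igf2r, Igf2r and Igf1r, Igfbp4 and Igf1, Irs1 and Insr, and Insr and Irs2. All other neighbours differed by less than that spread. Behind these values, the deposited exon lengths are shorter than in GENCODE M21 for Igf1r, Insr and Irs2. They were 4489 against 16791 bases for Igf1r, 9633 against 13746 for Insr and 4024 against 6323 for Irs2. Reads on exon bases outside the deposited lengths were not counted. The place of these genes in the order and their CPM levels are therefore uncertain.

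Igf1, the growth factor that mediates much of the action of growth hormone (ENSMUSG00000020053, GRCm38 chromosome 10, 87858265 to 87937042, plus strand), varied widely within each strain. It was at 8.02, 7.07, 7.88, 6.98, 6.95, 83.9, 11.6 and 6.23 CPM in LG/J males 1 to 8, and at 9.68, 12.96, 17.6, 6.29, 10.7, 17.7, 12.2 and 16.7 CPM in LG/J females 1 to 8. It was at 20.4, 22.5, 17.6, 11.55, 9.41, 13.3, 15.5 and 29.5 CPM in SM/J males and at 24.5, 59.5, 40.7, 33.7, 6.22, 10.2, 21.2 and 23.4 CPM in SM/J females in the same order. The LG/J male numbered 6 was the highest of all 32 libraries and the strains overlapped. The median was 10.2 CPM in LG/J, against 20.8 CPM in SM/J. The log2 fold change over both sexes was -0.54 ± 0.34 (adjusted p = 0.247). In the same fit it was -1.08 in females and -0.0073 in males, and was called in neither. Over both sexes it was -0.46 with both LG/J libraries numbered 1 left out (adjusted p = 0.361). Of the 32 fits that left out 1 library, 1 called Igf1, the fit without the LG/J male numbered 6. Without that library, LG/J averaged 10.6 ± 4.12 CPM (n = 15) against 22.4 ± 13.5 CPM in SM/J (n = 16). The log2 fold change was then -1.12 ± 0.23 (adjusted p = 0.000271).

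Markers of macrophages, cells known to make Igf1, were detected in these cultures. Summed levels of the 16 macrophage markers listed were 34.6 to 1949 CPM in LG/J (median 81.4) and 93.6 to 1433 CPM in SM/J (median 347). The filter kept 13 of them. The highest sum in LG/J was in male 6, the highest in SM/J in female 2, and the same libraries were highest in Igf1 in their strains. By these sums, not every library followed this. LG/J female 1 and LG/J male 1 had the next highest sums in LG/J, 538 and 421 CPM, with Igf1 at 9.68 and 8.02 CPM. Csf1r, the receptor for the macrophage growth factor CSF1, was at 159 CPM in LG/J male 6 and 178 CPM in SM/J female 2. Its median was 2.08 CPM in LG/J, against 12.8 CPM in SM/J. In LG/J female 1 and LG/J male 1, Csf1r was at 0.863 and 0.884 CPM and Adgre1 at 0.247 and 0.379 CPM. The lysosomal marker Cd68 was at 148 and 151 CPM in these libraries. Csf1r shares 871 exon bases with Hmgxb3 on the other strand, with mean counts of 409.7 and 162.7. The strand setting of the counting is unknown, so low Csf1r values are uncertain. Of the 13 markers kept, 0 were called higher and 3 lower in LG/J (Lyz2, Tyrobp and Fcer1g), with a median log2 fold change of -1.18. With both LG/J libraries numbered 1 left out, 0 were higher and 2 lower (Cd14 and Lyz2; median -1.25). No marker kept was at 0 in a whole strain. The log2 fold changes of the surface markers were -1.41 ± 0.68 for Csf1r (adjusted p = 0.12), -1.84 ± 0.71 for Adgre1 (0.0503) and -0.24 ± 0.39 for the lysosomal marker Cd68 (0.698). With both libraries numbered 1 left out they were -1.25, -1.66 and -0.67 in that order, with adjusted p-values of 0.0792 to 0.178. Without both LG/J male 6 and SM/J female 2, a choice made after seeing the data, Igf1 was called lower in LG/J (-0.99 ± 0.21, adjusted p = 0.000488). The part of macrophage transcripts in the Igf1 difference was not tested.

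**Figure D2:**
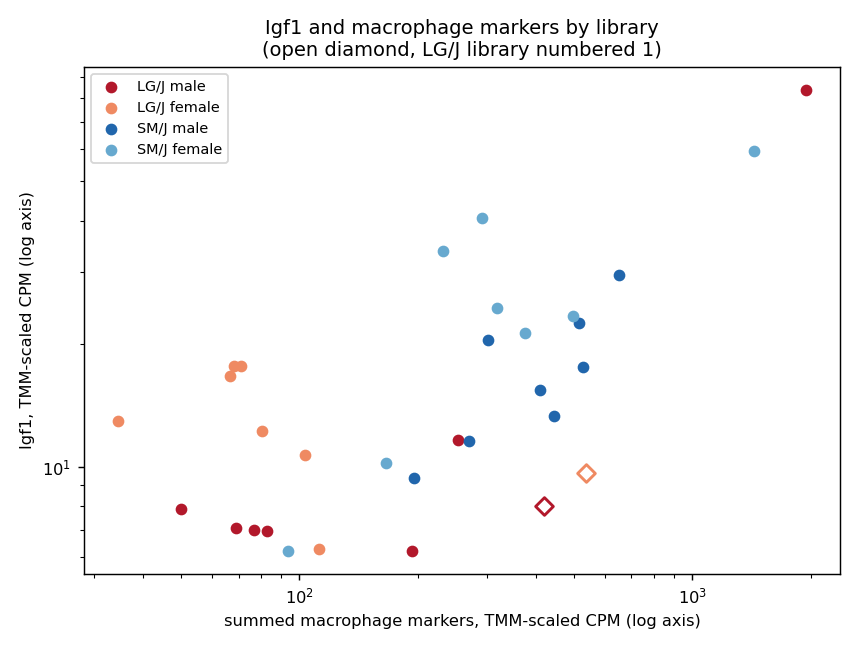
Igf1 against the summed level of 16 macrophage markers, both in TMM-scaled CPM on log axes, 1 point per library, with open diamonds for the LG/J libraries numbered 1. The LG/J male numbered 6 and the SM/J female numbered 2 lie at the upper right, and most LG/J libraries lie left of most SM/J libraries.

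Igf2, a growth factor expressed from the paternal allele and best known from fetal growth (ENSMUSG00000048583, chromosome 7, 142650766 to 142666816, minus strand), spread over a wider range in LG/J than in SM/J. In LG/J males it was at 14.01, 52.1, 47.5, 216, 209, 594, 181 and 171 CPM, and in LG/J females at 14.4, 962, 22.4, 125, 131, 102, 424 and 391 CPM. In SM/J males it was at 89.3, 97.6, 106, 237, 57.4, 261, 279 and 255 CPM, and in SM/J females at 114, 100.4, 80.2, 76.8, 248, 46.9, 237 and 226 CPM. Both LG/J libraries numbered 1 were the lowest of all 32, the LG/J female numbered 2 was the highest, and the strains overlapped. LG/J averaged 229 ± 255 CPM and SM/J 157 ± 86.1 CPM (SD, n = 16 each), a log2 fold change of 0.52 ± 0.46 (adjusted p = 0.431). Without both libraries numbered 1 the difference was 0.71 ± 0.41 (adjusted p = 0.201). H19, the noncoding RNA made next to Igf2 from the maternal allele, was at 268 ± 207 CPM in LG/J, against 223 ± 80.1 CPM in SM/J, lowest at 11.6 CPM in LG/J female 1 and highest at 929.6 CPM in LG/J female 2. Igf2 shares 98 exon bases, 1.7% of its exon length, with the antisense gene Igf2os, whose mean count was 3.5 against 4098.0 for Igf2. The strand setting of the counting is unknown, so these counts cannot show how many reads the overlap affected.

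Insulin itself was near the limit of detection. Ins1 averaged 0.195 ± 0.179 CPM in LG/J, against 0.229 ± 0.186 CPM in SM/J, at most 10 reads in an LG/J and 12 in an SM/J library. Ins2 had at most 2 and 3 reads in LG/J and SM/J libraries.

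Among the receptors, Igf2r was the one that differed between strains. Igf2r, which removes IGF2 and sorts lysosomal enzymes (ENSMUSG00000023830, chromosome 17, 12682406 to 12769664, minus strand), was at 85.8, 121, 128, 148, 146, 185, 154 and 128 CPM in LG/J males and at 88.5, 194, 107, 159, 163, 155, 177 and 166 CPM in LG/J females. In SM/J males it was at 128, 135, 99.3, 97.9, 98.7, 104, 107 and 98.8 CPM and in SM/J females at 107, 115, 81.1, 80.9, 130.3, 104, 132 and 136 CPM. The strains overlapped: both LG/J libraries numbered 1 lay below most SM/J libraries, and the LG/J female numbered 3 lay near the SM/J median. LG/J averaged 144 ± 32.2 CPM and SM/J 109.7 ± 17.9 CPM (SD, n = 16 each), a log2 fold change of 0.39 ± 0.10 (adjusted p = 0.00379). Without both LG/J libraries numbered 1, LG/J averaged 152 ± 25.02 CPM (n = 14) and the difference was 0.47 ± 0.09 (adjusted p = 8.15e-05). The call held whichever of the 32 libraries was left out, at adjusted p-values of 0.000578 to 0.00877. In mice Igf2r is expressed mainly from the maternal allele, and its antisense RNA Airn from the paternal one. Airn averaged 4.01 ± 1.19 CPM in LG/J, against 4.30 ± 1.20 CPM in SM/J.

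Igf1r, the main receptor of both IGFs (ENSMUSG00000005533, chromosome 7, 67952859 to 68226780, plus strand), did not differ detectably between strains but was lower in males. LG/J averaged 31.7 ± 7.37 CPM and SM/J 32.3 ± 10.6 CPM (SD, n = 16 each), a log2 fold change of -0.01 ± 0.12 (adjusted p = 0.979), or -0.08 with both LG/J libraries numbered 1 left out (0.615). By sex it was at 41.03, 29.8, 26.6, 25.1, 23.5, 33.4, 27.3 and 21.5 CPM in LG/J males and at 46.4, 23.8, 38.9, 27.6, 30.5, 40.1, 36.9 and 35.4 CPM in LG/J females. In SM/J males it was at 23.4, 41.98, 28.8, 18.8, 25.2, 25.6, 22.2 and 22.04 CPM and in SM/J females at 46.6, 28.5, 45.4, 54.7, 32.7, 42.6, 27.3 and 31.3 CPM. The sexes overlapped in both strains, with medians of 26.9 CPM in LG/J males and 36.2 CPM in LG/J females, and of 24.3 CPM in SM/J males and 37.6 CPM in SM/J females. Males averaged 27.3 ± 6.59 CPM and females 36.8 ± 8.69 CPM (SD, n = 16 each), a male minus female log2 fold change of -0.43 ± 0.12 (adjusted p = 0.0327). In this comparison 1 of 10 members was called (10%), against 3.46% of all genes. The other 9 members had adjusted p-values of 0.311 or more and log2 fold changes of -1.15 to 0.25.

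The sex difference of Igf1r lay close to the threshold. With both LG/J libraries numbered 1 left out it was -0.44 (adjusted p = 0.0186), and with the 6 mixed-sex libraries left out -0.50 (0.0205). It was not called when the close pairs were summed (-0.40, adjusted p = 0.193) or when no filter was set on low counts (-0.43, adjusted p = 0.0549). Leaving out 1 library ended the call for 12 of the 32, namely LG/J males 5 and 8, LG/J females 3 and 6, SM/J males 4 to 8 and SM/J females 1, 3 and 4, with log2 fold changes of -0.50 to -0.39 and adjusted p-values up to 0.0621 over all 32.

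Insr, the insulin receptor gene (ENSMUSG00000005534, chromosome 8, 3150922 to 3279617, minus strand), was low and even across groups. It ranged over 6.39 to 12.3 CPM in LG/J males (median 7.64), 5.07 to 11.3 CPM in LG/J females (8.85), 5.94 to 9.56 CPM in SM/J males (6.92) and 5.66 to 9.85 CPM in SM/J females (7.79). LG/J averaged 8.29 ± 1.93 CPM and SM/J 7.31 ± 1.31 CPM (SD, n = 16 each; 0.18 ± 0.11, adjusted p = 0.219). Leaving out both LG/J libraries numbered 1 gave 0.15 (0.318).

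Irs1, the substrate that docks PI3K on both the insulin and the IGF1 receptor (ENSMUSG00000055980, chromosome 1, 82233101 to 82291416, minus strand), had the strain difference with the smallest p of the 10 genes. It was at 20.01, 37.2, 46.8, 45.8, 41.3, 46.4, 46.4 and 36.9 CPM in LG/J males 1 to 8 and at 18.2, 53.5, 26.1, 45.9, 53.6, 43.8, 57.3 and 55.3 CPM in LG/J females 1 to 8. It was at 22.8, 19.99, 11.8, 12.97, 13.04, 11.8, 12.3 and 13.8 CPM in SM/J males and at 19.3, 23.2, 12.1, 13.4, 14.3, 23.4, 27.4 and 26.9 CPM in SM/J females. In males, every LG/J library other than the one numbered 1 lay above every SM/J library. In females, LG/J 1 and LG/J 3 lay within the SM/J range and the other 6 lay above it. LG/J averaged 42.2 ± 11.9 CPM and SM/J 17.4 ± 5.74 CPM (SD, n = 16 each), a log2 fold change of 1.29 ± 0.16 (adjusted p = 6.19e-08). The difference was 1.44 ± 0.22 in males (adjusted p = 8.67e-06) and 1.15 ± 0.22 in females (0.000261). Without both LG/J libraries numbered 1, LG/J averaged 45.5 ± 8.36 CPM (n = 14) and the difference over both sexes was 1.40 ± 0.13 (adjusted p = 3.62e-10). The call held in all 32 fits that left out 1 library, with log2 fold changes of 1.25 to 1.35. Irs1 overlaps the predicted antisense gene Gm9747 over 2822 exon bases, 30.9% of its exon length, and Gm9747 had a mean count of 0.0. With the strand setting of the counting unknown, that count cannot show how many Irs1 reads the overlap affected.

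Irs2, the second widely used substrate (ENSMUSG00000038894, chromosome 8, 10986980 to 11008458, minus strand), was close to the floor of the data and did not pass the test. It had 11 to 42 reads per LG/J library and 6 to 49 per SM/J library. LG/J averaged 1.21 ± 0.264 CPM and SM/J 1.05 ± 0.487 CPM (SD, n = 16 each; 0.20 ± 0.19, adjusted p = 0.473), and leaving out both LG/J libraries numbered 1 gave 0.18 (0.554). The highest library was SM/J female 5 at 2.09 CPM and the lowest SM/J female 1 at 0.284 CPM, so the SM/J females spanned the range of all groups.

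**Figure D3:**
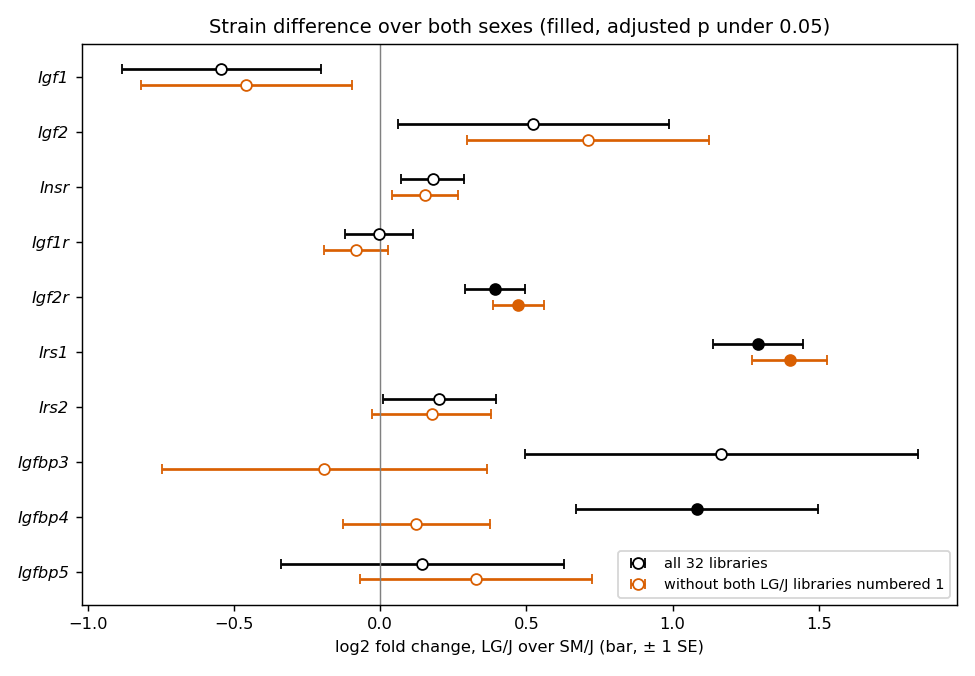
Log2 fold change of LG/J over SM/J over both sexes for the 10 genes, with bars of ± 1 SE, over all 32 libraries and without both LG/J libraries numbered 1; filled points had an adjusted p under 0.05. Irs1 and Igf2r are filled in both fits, and Igfbp4 stands at 1.08 over all libraries and at 0.12 without both, Igfbp3 at 1.17 and -0.19.

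The promoters of Irs1 and Igf2r, the genes called in both fits, are shown beside that of Irs2, the substrate gene that was not called. Each runs from 250 bases before to 50 bases after the start in RefSeq on GRCm38.p6, written 5′ to 3′ on the minus strand, with matches to GGGCGG or its reverse complement CCGCCC, letters that the factor SP1 binds, in capitals. The Irs1 promoter lies at chr1:82291390-82291689, the Igf2r promoter at chr17:12769657-12769956 and the Irs2 promoter at chr8:11008880-11009179.
Irs1: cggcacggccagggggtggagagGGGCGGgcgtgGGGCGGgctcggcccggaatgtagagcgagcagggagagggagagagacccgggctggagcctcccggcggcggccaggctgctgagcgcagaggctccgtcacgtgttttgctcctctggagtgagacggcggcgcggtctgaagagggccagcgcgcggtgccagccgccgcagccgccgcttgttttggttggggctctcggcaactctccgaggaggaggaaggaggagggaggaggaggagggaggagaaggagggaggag
Igf2r: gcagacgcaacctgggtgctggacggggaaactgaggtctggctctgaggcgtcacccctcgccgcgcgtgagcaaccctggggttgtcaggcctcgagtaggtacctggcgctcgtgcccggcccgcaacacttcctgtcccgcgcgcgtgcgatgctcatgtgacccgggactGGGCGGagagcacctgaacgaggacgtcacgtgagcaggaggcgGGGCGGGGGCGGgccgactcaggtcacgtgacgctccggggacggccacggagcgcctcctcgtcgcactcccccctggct
Irs2: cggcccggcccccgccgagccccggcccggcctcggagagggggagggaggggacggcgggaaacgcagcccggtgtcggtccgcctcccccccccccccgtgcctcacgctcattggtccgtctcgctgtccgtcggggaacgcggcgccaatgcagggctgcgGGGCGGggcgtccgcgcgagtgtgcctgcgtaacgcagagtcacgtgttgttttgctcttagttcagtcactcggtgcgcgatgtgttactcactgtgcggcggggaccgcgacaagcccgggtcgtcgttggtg
The Irs1 promoter held 2 matches, the Igf2r promoter 3 and the Irs2 promoter 1, on either strand, and 35.7% of all 32851 promoters of this length held at least 1. Their GC content was 71.3% for Irs1, 70.7% for Igf2r and 72.0% for Irs2, against a median of 52.7% over all promoters. Of the 12 promoters found for 9 of the genes, 0 held the letters GTAAACA or TGTTTAC, which FOXO factors bind and 3.6% of all promoters hold. The letters TATAAA or TTTATA were found in the Igfbp4 promoter, 1 of the 12, and in 13.6% of all promoters. These matches describe the letters and were not tested as sites.

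Igfbp4, a binding protein that mostly inhibits IGF action until the protease PAPP-A cuts it (ENSMUSG00000017493, chromosome 11, 99041244 to 99054392, plus strand), was set apart by the libraries numbered 1. In LG/J males it was at 279.6, 40.4, 35.2, 45.3, 51.4, 24.97, 37.7 and 34.7 CPM and in LG/J females at 285, 40.7, 11.7, 41.1, 40.5, 16.7, 23.1 and 25.1 CPM. In SM/J males it was at 78.3, 36, 35.2, 40.95, 17.5, 13.99, 16.1 and 22.1 CPM and in SM/J females at 39.4, 64.4, 12.6, 15.3, 32.6, 17.8, 20.2 and 24.5 CPM. Libraries 1 of both LG/J sexes lay far above all others, and the remaining 14 LG/J libraries lay inside or just below the SM/J range. LG/J averaged 64.6 ± 85.7 CPM and SM/J 30.4 ± 18.7 CPM (SD, n = 16 each; 1.08 ± 0.41, adjusted p = 0.0464). Without both, LG/J averaged 33.5 ± 11.4 CPM (n = 14) and the difference was 0.12 ± 0.25 (adjusted p = 0.752). The same libraries had the highest osteoblast and the lowest chondrocyte marker sums, whose part in the Igfbp4 call was not tested. Leaving out 1 library also ended the call for 17 of the 32 (LG/J males 1 and 5, LG/J females 1 and 5, SM/J males 2 to 8, SM/J females 3 to 8), with adjusted p-values of 0.022 to 0.236 over all 32. It was 0.67 without LG/J male 1 (adjusted p = 0.172) and 0.54 without LG/J female 1 (0.236). With DESeq2 it was 0.54 (adjusted p = 0.164).

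Igfbp3, the main carrier of IGFs in blood (ENSMUSG00000020427, chromosome 11, 7206086 to 7213923, minus strand), had few reads in most libraries and the most in both LG/J libraries numbered 1. It had 75 reads in LG/J male 1 and 129 in LG/J female 1, at most 62 in the other LG/J libraries and at most 47 in SM/J. It was at 0 in 3 LG/J libraries and in 1 SM/J library, where 0 reads allow up to 3 reads. LG/J ranged over 0 to 7.95 CPM (median 0.421) and SM/J over 0 to 2.23 CPM (median 0.291). The log2 fold change was 1.17 ± 0.67 (adjusted p = 0.201), and -0.19 ± 0.56 without both libraries numbered 1 (0.833).

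Igfbp5, a binding protein held in bone and cartilage matrix (ENSMUSG00000026185, chromosome 1, 72857932 to 72874884, minus strand), had the widest range of the 10 genes in LG/J among those detected in every library, and no strain difference was detected. It was at 6.44, 73.6, 107, 1034, 974, 242, 438 and 428 CPM in LG/J males and at 8.88, 24.3, 30.8, 524, 554, 196, 258 and 265 CPM in LG/J females. It was at 452, 184, 157, 435, 289, 148, 163 and 177 CPM in SM/J males and at 420.3, 459, 120.4, 124, 291, 209, 437 and 451 CPM in SM/J females. All 16 SM/J libraries lay inside the LG/J range, and the LG/J libraries numbered 1 were the lowest of all. LG/J averaged 323 ± 323 CPM and SM/J 282 ± 137 CPM (SD, n = 16 each; 0.14 ± 0.48, adjusted p = 0.861). The difference was 0.33 ± 0.40 with both of these left out (adjusted p = 0.575). The LG/J female numbered 2, highest of all libraries in Igf2, had 24.3 CPM of Igfbp5.

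The spread of Igf2 and Igfbp5 within groups was small between the libraries closest to each other over all genes. Within the 6 closest pairs, the median fold between a pair was 1.06 for Igf2 and 1.06 for Igfbp5. In the other 106 pairs of libraries of the same group it was 2.93 for Igf2 and 2.46 for Igfbp5, up to 66.96-fold and 161-fold. The same medians were 1.03 within the closest pairs and 1.23 in the others for Igf2r, and 1.18 and 1.62 for Igf1. The closest pairs were found over all genes, these included.

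**Figure D4:**
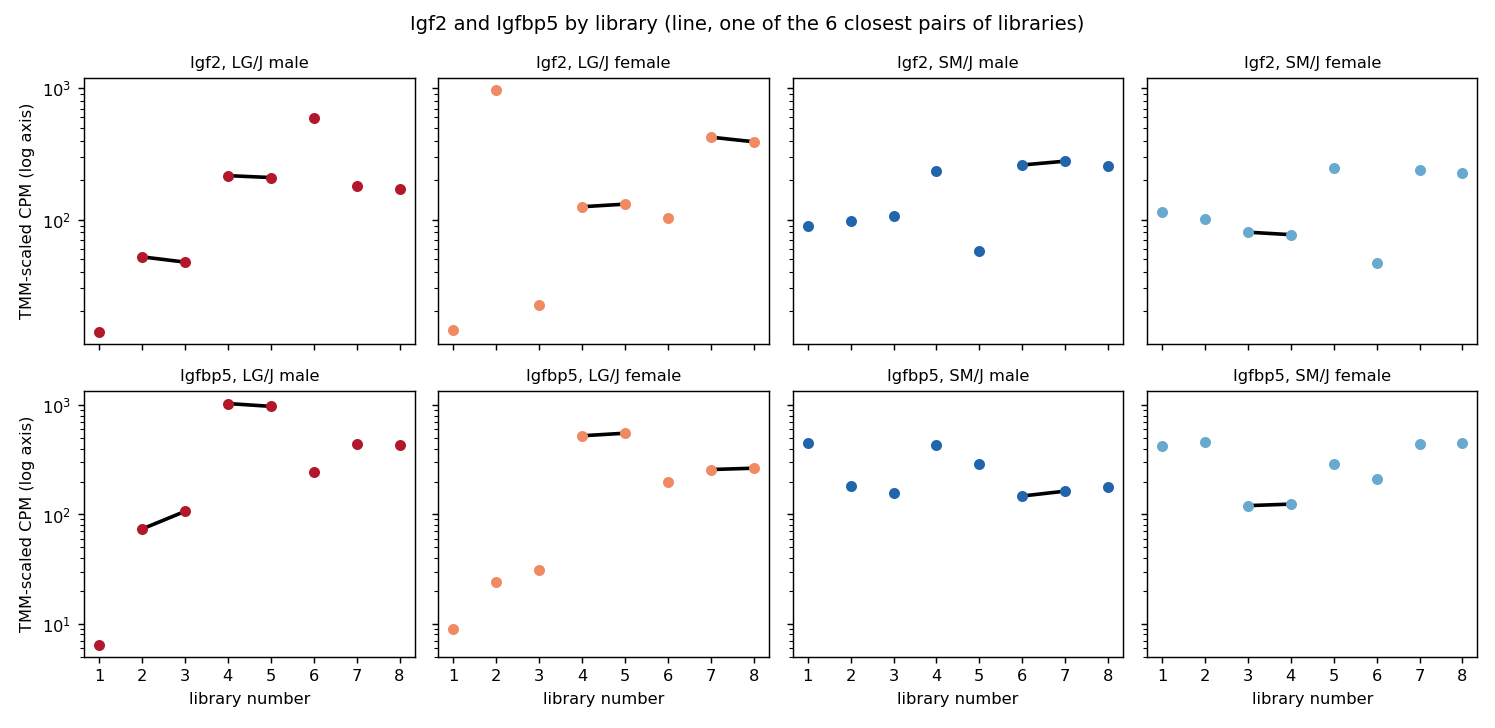
Igf2 and Igfbp5 in TMM-scaled CPM on log axes against the library number, with panels for LG/J males, LG/J females, SM/J males and SM/J females, and a line joining each of the 6 closest pairs. Joined libraries lie at nearly the same height, while others of the same group lie up to 66.96-fold apart for Igf2 and 161-fold for Igfbp5.

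By sex, the strain comparison called fewer of the genes. In males, 1 of 10 (10%) was called, Irs1, against 22.3% of all genes. In females, 2 of 10 (20%) were called, Irs1 and Igf2r, against 13.4% of all genes. Igf2r was 0.33 ± 0.14 in males (adjusted p = 0.0976) and 0.45 ± 0.15 in females (0.035). In males it was called when LG/J male 1 was left out (adjusted p = 0.0316) or both LG/J libraries numbered 1 (0.0139). In females, leaving out 1 library ended its call for 10 of the 32 (LG/J females 2 and 4 to 8, SM/J females 1, 3, 4 and 6), with adjusted p-values up to 0.0976. Whether the strain difference itself differed between the sexes was tested as an interaction. There, 0 of the 10 genes passed with edgeR, the lowest adjusted p was 0.761, and 1 of 16136 genes was called (0.0062%). Across all genes 1345 had an unadjusted p under 0.05, and DESeq2 called 55.

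The genes most like each member in their deviations from the group means, over the 30 libraries other than the LG/J libraries numbered 1, were taken by Pearson correlation of log2 CPM. These values describe the libraries, which share depth and marker levels and include the closest pairs. For Igf1 they were Celf2 (r = 0.891) and Lipa (0.882), the lysosomal acid lipase. For Igf2 they were Gpc3 (0.83), a cell surface proteoglycan, and Peg3 (0.814), an imprinted gene expressed from the paternal allele, and Peg3 (0.864) was also the nearest of Igf2r, before Nid2 (0.854), a basement membrane protein. For Igf1r they were the atypical cadherin Fat4 (0.851) and the giant scaffold protein Ahnak (0.842), and for Insr Txlnb (0.644) and Gm5760 (0.642). For Irs1 they were Tom1l2 (0.875) and Zkscan1 (0.87), and for Irs2 Zdhhc8 (0.746) and Scap (0.715), a sterol-sensing escort of transcription factors. For Igfbp3 they were Zc2hc1a (0.896) and Masp1 (0.868), for Igfbp5 Foxp2 (0.92) and Gabarapl1 (0.905), and for Igfbp4 Paxx (0.898) and Nupr1 (0.896). The last pair stood at 0.0519 and -0.0814 over all 32 libraries, where both LG/J libraries numbered 1 were included. For the other genes, r over all 32 libraries ran from 0.466 (Insr and Txlnb) to 0.927 (Irs1 and Tom1l2). It was lower for some of them and higher for others than over the 30 libraries.

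The rest of the pathway was read from 10 lists of genes around these 10. The counts below are of genes called for the strain difference over both sexes, to be read against 16.4% higher and 13.5% lower over all genes and a median log2 fold change of 0.02. The shares over all genes were 17.1% higher and 15.1% lower without both LG/J libraries numbered 1, where the median was -0.0049, and every gene named from the lists below was called in the same direction.

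Of 7 other ligands and carriers tested, 1 was higher and 1 lower in LG/J (median log2 fold change 0.12), and 2 higher and 1 lower without both LG/J libraries numbered 1 (median -0.16). Igfbp6, a binding protein that prefers IGF2, was higher (0.59 ± 0.22, adjusted p = 0.0358), and Insl6, an insulin-like peptide, was lower (-0.44 ± 0.14, adjusted p = 0.0189). Of 13 IGFBP proteases and their inhibitors, 3 were higher and 3 lower (median -0.06), and 2 and 4 without both (median -0.32). The serine protease Htra3 averaged 105 ± 26.1 CPM in LG/J against 59.3 ± 10.9 CPM in SM/J (0.82 ± 0.11, adjusted p = 5.10e-07). Stc2, an inhibitor of PAPP-A, averaged 128 ± 32.1 CPM in LG/J against 77.7 ± 17.4 CPM in SM/J (0.73 ± 0.12, adjusted p = 1.59e-05), while the lysosomal protease Ctsl was lower in LG/J (-0.48 ± 0.09, adjusted p = 0.000155). Leaving out 1 library ended the call of Igfbp6 for 11 of the 32 (LG/J males 2 and 3, LG/J females 2, 4 and 5, SM/J females 3, 4, 7 and 8, SM/J males 4 and 7), as did 4 other alternatives, with adjusted p-values up to 0.267.

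Of 42 adaptors and inhibitors at the receptors, 7 were higher and 1 lower (median 0.14), and 7 and 3 without both (median 0.01). The phosphatase Ptprf (0.38 ± 0.06, adjusted p = 2.30e-05), the RAS exchange factor Sos2 (0.52 ± 0.10, adjusted p = 0.000125) and the ubiquitin ligase Nedd4 (0.38 ± 0.08, adjusted p = 0.00026) were higher in LG/J. Of 25 genes of the PI3K and AKT arm, 8 were higher and 2 lower (median 0.20), and as many without both (median 0.09). The kinase gene Gsk3b, which AKT inhibits, was higher in LG/J (0.53 ± 0.08, adjusted p = 1.63e-06), and Pik3cb, a catalytic subunit of PI3K, was lower (-0.88 ± 0.14, adjusted p = 1.37e-05).

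Of 19 genes of the mTOR arm, 6 were higher and 0 lower (median 0.23), and 9 and 0 without both (median 0.23). Tsc1, which restrains mTOR (0.30 ± 0.06, adjusted p = 0.000419), the S6 kinase gene Rps6kb1 (0.31 ± 0.08, adjusted p = 0.00189) and the translation repressor gene Eif4ebp2 (0.51 ± 0.13, adjusted p = 0.00298) were the ones with the smallest p. Of 16 genes of the RAS and MAPK arm, 2 were higher and 2 lower (median 0.06), and 3 and 2 without both (median -0.05). Nras, a RAS protein gene, was at 190.5 to 279.96 CPM in LG/J and 280.01 to 427 CPM in SM/J, so the ranges met without overlapping (-0.67 ± 0.06, adjusted p = 3.43e-10). Braf (0.31 ± 0.10, adjusted p = 0.0161) and Elk1 (0.23 ± 0.08, adjusted p = 0.0199), a kinase and a transcription factor of that arm, were higher in LG/J.

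Of 8 genes of the growth hormone arm, 4 were higher and 2 lower (median 0.31), and as many without both (median 0.34). The transcription factor Stat3 averaged 166 ± 18.2 CPM in LG/J against 108 ± 19.8 CPM in SM/J (0.63 ± 0.07, adjusted p = 6.58e-09) and the feedback inhibitor Socs2 was also higher (0.50 ± 0.12, adjusted p = 0.00242), while the prolactin receptor gene Prlr was lower (-0.94 ± 0.22, adjusted p = 0.00119). Of 3 genes for proteins that bind the Igf2 messenger, Igf2bp2 was higher (0.29 ± 0.09, adjusted p = 0.0154) and Igf2bp3 lower (-0.82 ± 0.24, adjusted p = 0.0086), with 1 in each direction also without both. Igf2bp3 shares 1531 exon bases, 35.2% of its length, with Malsu1 on the other strand, whose mean count of 151.8 was above the 51.3 of Igf2bp3. The strand setting of the counting is unknown, so the reads of Igf2bp3 are uncertain.

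Of 16 imprinted growth genes, 2 were higher and 1 lower (median 0.13), and 4 and 1 without both (median 0.16). The amino acid transporter gene Slc38a4 (1.58 ± 0.28, adjusted p = 5.71e-05) and the noncoding RNA Kcnq1ot1 (0.44 ± 0.14, adjusted p = 0.0174) were higher, and the noncoding RNA Meg3 was lower (-0.60 ± 0.20, adjusted p = 0.0203). Of 15 targets of the FOXO factors, which AKT keeps out of the nucleus, 2 were higher and 0 lower (median 0.18), Trib1 (1.02 ± 0.19, adjusted p = 8.92e-05) and the thioredoxin inhibitor Txnip (0.54 ± 0.17, adjusted p = 0.0145). Without both, 3 were higher and 2 lower, and the median of the FOXO list changed sign, to -0.15. Of the genes named from these lists, 8 lost their call in at least 1 alternative. With the close pairs summed these were Igfbp6, Braf, Elk1, Igf2bp3, Kcnq1ot1 and Txnip, and with the 6 mixed-sex libraries left out Igfbp6, Igf2bp2, Meg3 and Txnip. Their highest adjusted p-values were 0.143 for Braf, 0.0796 for Elk1, 0.0575 for Igf2bp3, 0.0569 for Igf2bp2, 0.107 for Kcnq1ot1, 0.0658 for Meg3 and 0.123 for Txnip. Calls among cell type markers are to be read against the same 16.4% higher and 13.5% lower over all genes. In LG/J, 1 of 11 fibroblast markers was higher and 3 lower. For osteoblast markers 2 of 10 were higher and 0 lower, and for chondrocyte markers 3 of 14 were higher and 0 lower (Hapln1, Sox9 and Acan). Acan, at an adjusted p of 0.0443, was called in 16 of 44 alternatives (1.59e-05 to 0.222). Sox9, at 0.0163, was called in 42 of them (1.85e-05 to 0.145). Of 6 endothelial markers tested, 0 were called. In each of the lists of 5 muscle, 4 adipocyte and 4 blood cell markers tested, 0 were higher and 1 lower. Without both LG/J libraries numbered 1, 10 of the 14 chondrocyte markers were higher and 0 lower, against 17.1% and 15.1% of all genes. Their median log2 fold change was then 0.63, against 0.46 over all libraries. The fibroblast markers were then 1 higher and 2 lower, and the osteoblast markers 3 higher and 0 lower. Of the 6 endothelial markers 0 were then called, and of 5 muscle markers 0 were higher and 1 lower. Of 4 adipocyte markers 0 were higher and 2 lower, and of 5 blood cell markers 0 were higher and 3 lower. The part of these markers in the pathway counts and in the Irs1 and Igf2r differences was not tested.

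**Figure D5:**
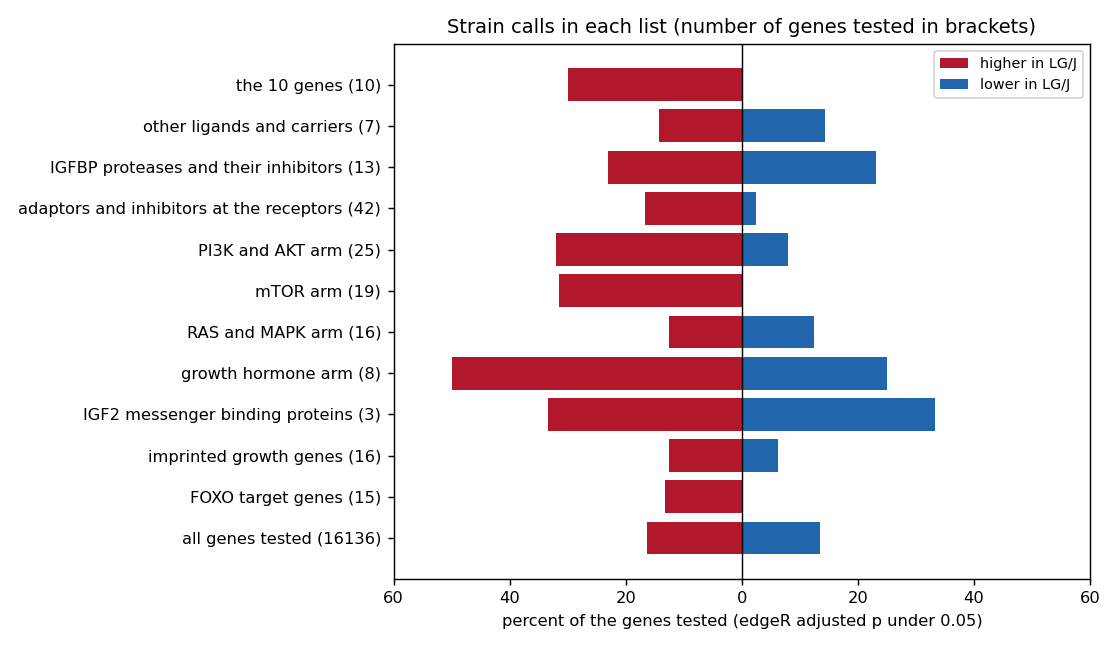
Percent of the genes tested in each list that were called higher (bars to the left) or lower (bars to the right) in LG/J over both sexes at an edgeR adjusted p under 0.05, with the number of genes tested in brackets. Over all 32 libraries, as drawn, the 10 genes and the mTOR and FOXO lists have no bar to the right (without both LG/J libraries numbered 1, 2 FOXO targets were lower), and the bottom bar gives all 16136 genes at 16.4% higher and 13.5% lower.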

How the data were processed

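The submitters' processing notes name STAR 2.0.4b, GRCm38 and featureCounts 1.45 of Subread for alignment and counting. Which annotation release and strand setting were used is not given in the sources used here. Per the labels' protocols, RNA came from a Qiagen column kit and libraries from SMARTer chemistry. The authors deposited read counts, CPM and RPKM for 41388 Ensembl genes in each library. The deposited CPM values equalled count over library total (largest difference 1.2e-10), and the deposited RPKM values equalled that CPM over the exon length given beside it (largest difference 9.1e-11). Symbols were found for 40254 IDs.

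The filterByExpr function of edgeR 4.0.16 kept 16136 genes, whose counts were scaled with TMM and fitted by quasi-likelihood with robust dispersions in R 4.3.3, with 1 mean for each of the 4 groups of 8 libraries. The fit over all 32 libraries gave the strain contrast (LG/J minus SM/J), averaged over males and females and by sex, the male minus female contrast and the interaction. Benjamini-Hochberg adjustment ran over all genes kept, and calls were made under 0.05. SE is the size of the log2 fold change over the square root of F. The strain fit was tested on simulated data. Total counts per library, 15840330 to 25571598, set the counting error.

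Alternatives were DESeq2's size factors, upper-quartile factors, library size alone, no filter beyond 1 read, a stricter filter (1 CPM in 8 libraries), DESeq2 1.42.0, voom of limma 3.58.1, the replicate block, and leaving out each library, both LG/J libraries numbered 1 or the 6 mixed-sex ones. In another, the 6 closest pairs were summed, which left 26 libraries, and pairs from 5.91 times sampling noise upward were not summed. Leaving out LG/J male 6 and SM/J female 2 was added after seeing the data. Named were the 10 genes, up to 3 called genes with the smallest p per pathway list, set markers, and for each of the 10 the 2 most correlated genes (log2 CPM, prior count 2). Of the genes this rule named, 1 is not reported here. Ligands of the insulin and relaxin family, H19, Airn and overlapping genes were added for context. RefSeq promoters were found for 9 of the 10 genes. The 10 genes and the lists were chosen with earlier results of these data known.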

Additional observations from a re-analysis of the deposited data

Results flagged for a closer look

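In 40 sets of 8 libraries (each of the 10 genes in each of the 4 groups), 5 libraries lay far from the other 7 of their group by Dixon's test on log2 CPM (prior count 2), with the gap to the nearest value above 0.526 of the whole range. Chance gives such a gap in about 1 of 20 sets. LG/J male 6 was at 83.86 CPM of Igf1 and at 12.34 CPM of Insr, above the other LG/J males, and it had the highest macrophage marker sum. LG/J male 1 was at 20.01 CPM of Irs1, below the other LG/J males, and at 279.6 CPM of Igfbp4, above them. LG/J female 1 was at 285.1 CPM of Igfbp4, above the other LG/J females. Of the 5 values, 3 belonged to the LG/J libraries numbered 1.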

How the results depend on the processing

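The strain calls of Irs1 and Igf2r over both sexes held under every alternative run. The highest adjusted p was 1.58e-05 for Irs1 and 0.0461 for Igf2r, the latter close to the threshold. The log2 fold changes of the strain difference that changed sign, none of them called, follow, and the cause was not tested. Those of the sex difference and the interaction, some of which also changed sign, are not listed. Over all 32 libraries, Igf1 in males was at -0.0073. With the 6 mixed-sex libraries left out these were 0.1961 for Igf1r and -0.4846 for Igfbp5 over both sexes, 0.0708 for Igf1r and 0.0394 for Irs2 in females, and 0.0635 for Igf1 and -0.0792 for Igf2 in males. With the close pairs summed they were 0.0457 for Igf1r, -0.2381 for Igfbp5 and 0.0004 for Cd68 over both sexes and 0.2078 for Igf1 in males. With voom they were 0.0203 for Igf1r, -0.5073 for Igfbp3 and -0.0632 for Igfbp5 over both sexes, 0.0292 for Irs2 in females, and -0.3065 for Igf2 and -1.1086 for Igfbp3 in males. Without both LG/J libraries numbered 1, Igfbp3 was at -0.1911 over both sexes, at -0.3425 in males and at -0.0397 in females, and Igf1 at 0.1071 in males. Igf1r was at 0.0067 with upper-quartile factors and 0.0013 with library size alone, which gave 0.1082 for Igf1 in males. Igf2 in males was at -0.4341 without LG/J male 6 and SM/J female 2. Leaving out 1 library gave ranges across 0, of -0.0516 to 0.0603 for Igf1r and -0.034 to 0.2391 for Igfbp5 over both sexes, -0.0491 to 1.5086 for Igfbp3 and -0.2496 to 0.0616 for Irs2 in females, and -1.1542 to 0.1418 for Igf1, -0.4337 to 0.2818 for Igf2 and -0.3461 to 1.5662 for Igfbp3 in males. In these ranges 1 value was called, Igf1 in males at -1.1542 without LG/J male 6 (adjusted p = 0.0109). The call of Igfbp4 was also lost with library size alone, no filter, voom, the mixed-sex libraries left out and the close pairs summed (adjusted p = 0.0524 to 0.175), and the stricter filter removed Igfbp3.

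Counts of calls moved more. Of the 10 genes, 3 were called over both sexes, 2 to 4 with 1 library left out. In females 2 were called, but 1 with library size alone, with no filter, without the mixed-sex libraries and with the close pairs summed, and 1 to 3 with 1 library left out. In males 1 was called, but 2 without both LG/J libraries numbered 1, with voom and without LG/J male 6 and SM/J female 2, and 1 to 2 with 1 library left out. Voom called 5636 genes in males, against 3600. For sex, 558 genes were called, against 922 without both LG/J libraries numbered 1, 123 with no filter, 1029 with DESeq2, 1734 with voom and 31 with the close pairs summed, and 314 to 963 with 1 library left out. For sex, 1 of the 10 was called, but 0 with no filter or the close pairs summed, 2 with voom and 0 to 1 with 1 library left out. The interaction called 1 gene, against 55 with DESeq2, 256 with voom, 0 with library size alone, with no filter, without the mixed-sex libraries, with the close pairs summed and without LG/J male 6 and SM/J female 2, and 0 to 23 with 1 library left out. The library numbers were not taken to pair the samples, since the labels name nothing they share and not every same-numbered pair had a correlation of deviations over 0.1. It was over 0.1 in 30 of 48 pairs, at -0.447 to 0.844 (median 0.138, against -0.0134 for other numbers), and 7 of 32 libraries were closest to their own number. With the replicate block, 5286 strain calls over both sexes stood against 4826, 1052 sex calls against 558 and 0 interaction calls against 1, the same number of the 10 genes was called in each comparison, and Igfbp5 over both sexes was at -0.4891 and Igf2 in males at -0.1707. Depth limits Irs2 and Igfbp3, which had few reads, and for Irs2 the shorter deposited exon length may also limit the count.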
